A study of Mus musculus with 12 samples.

Results

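The genes described here are 10 macrophage genes, chosen by name as rows of the count table: Csf1, Csf1r, Adgre1, Cd68, Cd14, Lyz2, Fcgr3, Mrc1, Cd163 and Trem2. They are 10 of the 16411 genes in the table, and all 10 passed the filter on low counts that left 13191 genes for testing. Each was compared between 6 mammary tumors and 6 pieces of benign gland from female mice of the MMTV-Neu-NDL-YD5 line. In this model the MMTV promoter, which is active chiefly in mammary epithelium, drives an activated HER2/neu receptor, so the macrophages themselves are host cells outside the intended target of the transgene. Both groups came from the transgenic line, on an FVB background and with no treatment. Benign meant mammary tissue without a visible tumor, taken far from the tumor site, so that the control samples also carried the transgene and came from a tumor-prone gland. The mice were followed from 10 weeks of age for about 10 further weeks, and tumors and benign tissue for RNA were taken from different mice.

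Macrophages are phagocytes that arise from embryonic precursors or blood monocytes and depend on signaling through the CSF1 receptor. The mammary gland holds resident macrophages in its fat and around its ducts and vessels, and these typically carry scavenger and lectin receptors such as CD163 and the mannose receptor. Macrophages in tumors and in lipid-loaded tissue are known for TREM2, a receptor for lipids and cell debris that signals through the adaptor TYROBP.

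The libraries held 5240853 to 8170687 counts in benign tissue and 6111393 to 8588567 in tumors, of which the 10 genes made up 0.0443 to 0.112% and 0.0313 to 0.0607%. Values are given as CPM, counts scaled to 1e+06 per library after TMM scaling, which corrects for library size and composition. The samples differed in their mix of cells, and some benign samples stood apart. Benign 1 had a summed level of 1865 CPM over 8 genes shared by all leukocytes, against 111 to 191 CPM in the other benign samples and 50.7 to 134 CPM in tumors. Its 10 T and NK cell markers summed to 702 CPM, against 16.4 to 28.2 CPM in the other benign samples. Benign 3, 4 and 6 held skeletal muscle transcripts at 34676 to 85353 CPM over 10 markers, against 34.0 to 385 CPM in benign 1, 2 and 5. All 8 adipocyte markers, all 7 fibroblast markers and all 7 endothelial markers were lower in tumors. Of 8 luminal epithelial markers 5 were higher and 1 was lower, with a log2 fold change of -4.74. All 5 basal epithelial markers were lower. The summed adipocyte markers were 7834 to 18141 CPM in the benign samples and 26.8 to 116 CPM in the tumors. These markers differed between the same groups as the genes below, and their part in those differences was not tested. In such bulk samples, fewer macrophages and less of an RNA per macrophage cannot be told apart. By immunofluorescence, the paper found a smaller stained area in benign tissue than in tumors for every cell type, with CD68 among the stains. That is an area of protein in sections, and its relation to the RNA levels given here was not tested.

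The macrophage genes did not move together. Trem2 was the only member that was higher in tumors, Mrc1 and Cd163 fell furthest, and the general markers were moderately lower or did not pass the test. By edgeR's quasi-likelihood test at a Benjamini-Hochberg adjusted p under 0.1, 1 member was higher, 7 were lower and 2 were not called. Of all genes tested, 28.2% were higher and 34.8% were lower at the same threshold. The median log2 fold change of the members was -0.47, against -0.06 over all genes tested. All 6 tumors lay above all 6 benign samples for Trem2 alone among the members, where 15.5% of all genes did so. All 6 tumors lay below all 6 benign samples for Mrc1 and Cd163, where 20.5% of all genes did so. Without tumor 1 or without tumor 5 the number of lower members was 4 instead of 7, since Csf1, Csf1r and Fcgr3 were then not called.

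**Figure D1:**
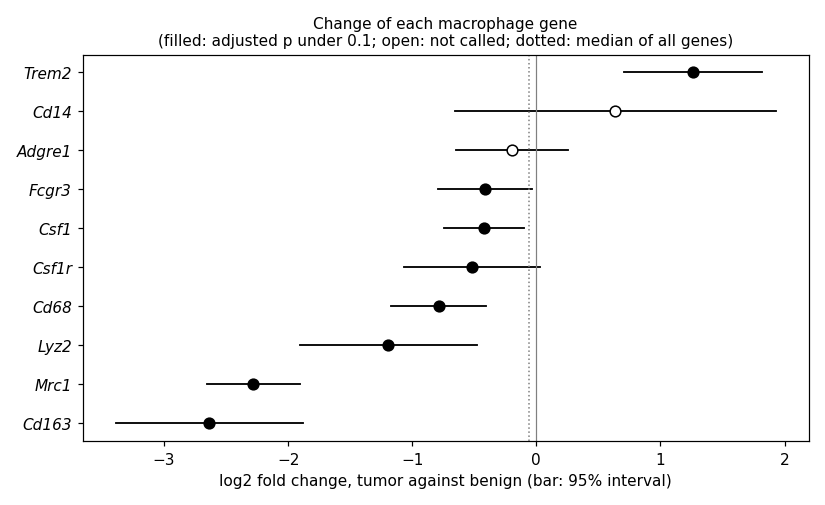
Log2 fold change of each macrophage gene in 6 tumors against 6 benign samples (x axis), with its 95% interval as a bar. Filled points passed an adjusted p of 0.1, and Trem2 is the only filled point above 0, while Cd163 and Mrc1 lie below -2.

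**Figure D2:**
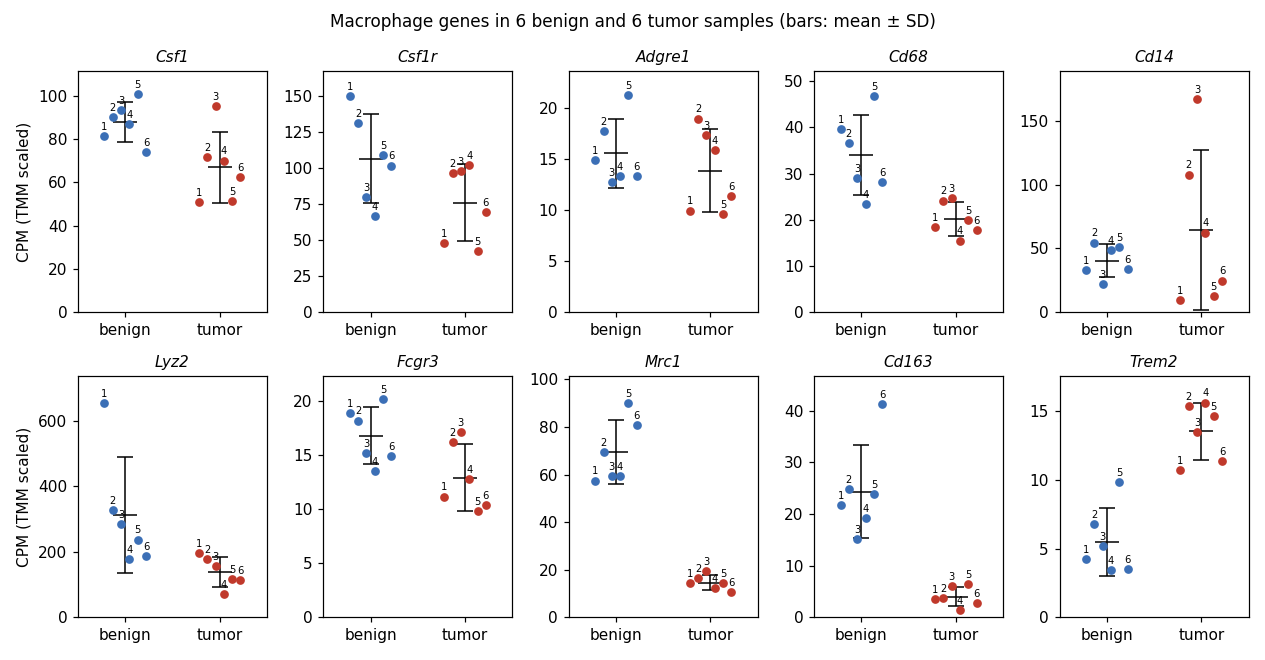
TMM-scaled CPM of each macrophage gene (y axis, starting at 0 in every panel) in the 6 benign and 6 tumor samples, with the sample number beside each point and the mean ± SD as bars. The groups separate completely for Mrc1, Cd163 and Trem2 and overlap for the other 7 genes.

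The growth factor axis was modestly lower. Csf1 encodes the growth factor that macrophages need to survive, and it is made mainly by stromal and epithelial cells rather than by macrophages. In benign tissue it had a lowest, median and highest level of 74.0, 88.6 and 101 CPM, and in tumors of 51.0, 66.2 and 95.2 CPM. Tumor 3 reached the upper part of the benign range, and the other 5 tumors lay below the lowest benign sample. Csf1 was 87.8 ± 9.38 CPM in the benign samples and 66.9 ± 16.5 CPM in the tumors (SD, n = 6 each, as for all values given with ±), a log2 fold change of -0.42 (SE 0.15, adjusted p = 0.0269). It was not called without tumor 1 (-0.29, adjusted p = 0.110), without tumor 5 (-0.29, adjusted p = 0.101) or without benign 3, 4 and 6 (-0.40, adjusted p = 0.115).

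Csf1r, the receptor for CSF1 and IL34 and a gene expressed across the macrophage lineage, ranged more widely. Benign samples gave a lowest, median and highest value of 67.0, 105 and 149.7 CPM, and tumors of 42.1, 82.9 and 102 CPM. Only tumors 1 and 5 lay below the benign range, and tumors 2, 3 and 4 sat close to the benign median. The means were 106 ± 30.9 CPM and 75.9 ± 26.7 CPM, and the log2 fold change was -0.52 with a 95% interval from -1.07 to 0.03. The adjusted p was 0.0997, just inside the threshold. DESeq2 gave an adjusted p of 0.120, and leaving out any sample except benign 3, benign 4 or tumor 4 also ended the call (log2 fold change -0.33 to -0.54, adjusted p 0.113 to 0.268). The ratio of Csf1 to Csf1r counts within a sample was 0.544 to 1.30 in benign tissue and 0.688 to 1.22 in tumors, and the groups overlapped.

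Of the other colony stimulating factors and receptors, 6 genes were tested, of which 4 were lower and 2, Csf2ra and Csf3r, were not called (log2 fold changes of 0.06 and 0.08). Over all genes tested, 34.8% were lower. Il34, the other ligand of the CSF1 receptor, fell from 26.1 ± 2.57 to 4.55 ± 3.32 CPM without overlap (a log2 change of -2.55 with adjusted p = 4.98e-05). The largest fall was that of Csf2rb2, a subunit of the receptor for interleukin-3 and a near copy of Csf2rb, with which it could share reads, from 36.3 ± 22.2 to 4.59 ± 1.47 CPM (a log2 change of -3.00 with adjusted p = 1.33e-05). Without benign 1, 3 genes of this group were lower.

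The general markers gave different answers. Adgre1 encodes F4/80, the adhesion receptor by which mouse macrophages are usually identified. The lowest, median and highest benign levels were 12.7, 14.1 and 21.3 CPM, against 9.57, 13.7 and 19.0 CPM among the tumors. The medians nearly coincided, although tumors 1, 5 and 6 lay below the benign range. The log2 fold change was -0.20 (95% interval -0.65 to 0.25, adjusted p = 0.440), and Adgre1 was not called under any of the 20 alternatives tried.

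Cd68 encodes a lysosomal and endosomal glycoprotein of phagocytes. In benign tissue it had a lowest, median and highest level of 23.4, 32.8 and 46.8 CPM, and in tumors of 15.5, 19.1 and 24.8 CPM. Tumors 2 and 3 reached just into the benign range, and the other 4 lay below it. Cd68 fell from 34.0 ± 8.65 to 20.1 ± 3.68 CPM (a log2 change of -0.79 with SE 0.18 and adjusted p = 0.00202) and was called under all 20 alternatives.

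Cd14, the co-receptor that passes bacterial lipopolysaccharide to TLR4, was the most variable member in tumors. Benign samples gave a lowest, median and highest value of 21.9, 41.2 and 54.6 CPM, and tumors of 9.64, 43.6 and 167 CPM. Tumors 2, 3 and 4 (108, 167 and 62.4 CPM) lay above every benign sample, while tumors 1 and 5 (9.64 and 12.9 CPM) lay below every benign sample and tumor 6 (24.8 CPM) lay within their range. The log2 fold change was 0.64 with a 95% interval from -0.65 to 1.93 (adjusted p = 0.384), so a change of either direction was not detectable with this spread between tumors. Without tumor 3 the log2 fold change was 0.14.

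Fcgr3 encodes a low-affinity activating receptor for IgG. The lowest, median and highest benign levels were 13.5, 16.7 and 20.2 CPM, against 9.82, 12 and 17.2 CPM among the tumors. Tumors 2 and 3 lay within the benign range and the other 4 below it. The log2 fold change was -0.41 (SE 0.17, adjusted p = 0.0604), and leaving out benign 1, 2 or 5, or tumor 1, 4, 5 or 6, ended the call (log2 fold change -0.28 to -0.36, adjusted p 0.120 to 0.200). Fcgr3 shares sequence with its inhibitory neighbor Fcgr2b: of the distinct 50-base windows in its protein-coding transcripts, 10.2% also occurred in those of Fcgr2b. A read from such a window cannot be assigned by its own sequence, although its mate in the pair may still assign it. The ratio of Fcgr3 to Fcgr2b counts overlapped between groups, at 0.526 to 1.05 in benign tissue and 0.681 to 1.53 in tumors.

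Lyz2 encodes the lysozyme of macrophages, monocytes and neutrophils, and it had the highest counts of the members. In benign tissue it had a lowest, median and highest level of 178, 261 and 653 CPM, and in tumors of 72.2, 137 and 196 CPM. The highest value was that of benign 1, the sample with the leukocyte transcripts, and tumor 1 alone reached into the benign range. Lyz2 fell from 312 ± 177 to 139 ± 46.1 CPM (a log2 change of -1.19 with SE 0.33 and adjusted p = 0.00749). Without benign 1 the log2 fold change was -0.79, and it was still called (adjusted p = 0.0173).

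Lyz2 lies on chromosome 10 beside its near copy Lyz1, the lysozyme of the intestinal Paneth cell. In GRCm38 Lyz2 spans bases 117277331 to 117282321 and Lyz1 bases 117287797 to 117292868, both on the minus strand. Their coding sequences are 444 bases each, differ at 22 bases and are 95% identical, with a longest identical run of 118 bases. The stretch from coding base 43 to 132 is shown because it holds 13 of those differences, in capitals, and a short read from there can tell the genes apart. The sequences are those of the GENCODE M21 transcripts.
Lyz2: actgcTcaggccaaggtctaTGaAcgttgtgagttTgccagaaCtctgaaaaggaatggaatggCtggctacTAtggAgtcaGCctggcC
Lyz1: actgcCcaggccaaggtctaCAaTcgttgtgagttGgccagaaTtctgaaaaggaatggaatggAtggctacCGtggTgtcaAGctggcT
Of the 50-base windows of the Lyz2 transcript, 15.4% also occurred in Lyz1. Lyz1 had far fewer counts than Lyz2 in every sample, at 3.36 to 28.7 CPM in the benign samples and 0.404 to 2.06 CPM in the tumors, and its groups did not overlap (a log2 change of -3.48 with adjusted p = 2.73e-04). Low tumor counts of Lyz1 make the size of this fall imprecise. Lyz2 counts were 10.4 to 70.6 times those of Lyz1 in benign tissue and 61.6 to 420 times in tumors, so that Lyz1 was a small share of the summed counts of the pair in every sample.

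The resident type genes fell furthest. Mrc1 (chromosome 2, 14229392 to 14332057) encodes the mannose receptor CD206, a lectin that takes up glycoproteins and marks tissue-resident macrophages. Benign samples gave a lowest, median and highest value of 57.5, 64.5 and 89.9 CPM, and tumors of 10.6, 14.4 and 19.6 CPM. Every tumor lay far below every benign sample, and both groups were tight. Mrc1 fell 4.75-fold in mean, from 69.5 ± 13.4 to 14.6 ± 3.17 CPM (a log2 change of -2.28 with SE 0.17 and adjusted p = 2.19e-07). Over the 20 alternatives its log2 fold change stayed between -2.32 and -2.14.

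Cd163 (chromosome 6, 124304656 to 124330527) encodes the scavenger receptor for hemoglobin bound to haptoglobin. The lowest, median and highest benign levels were 15.1, 22.7 and 41.2 CPM, against 1.48, 3.64 and 6.38 CPM among the tumors. The groups did not overlap, with benign 6 above the other benign samples and tumor 4 lowest. Cd163 was 6.08-fold lower in mean, from 24.3 ± 8.98 to 4.0 ± 1.88 CPM (a log2 change of -2.64 with SE 0.35 and adjusted p = 3.26e-05). Counts behind these values went down to 11 in a tumor, so single tumor values of Cd163 are less precise than those of Mrc1. Lyve1, which lymphatic vessels express too and which was not counted as a member, fell as well, from 26.1 ± 7.23 to 3.16 ± 1.19 CPM (a log2 change of -3.08 with adjusted p = 1.86e-06). The summed markers of lymphatic endothelium were 35.4 to 77.1 CPM in the benign samples and 9.95 to 25.96 CPM in the tumors, and their part in the fall of Lyve1 was not tested.

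Most of the wider set of resident type genes were lower too, with 11 of 12 tested genes lower, against 34.8% of all genes tested, and a median log2 fold change of -2.77. This list counts Lyve1, and without it 10 of 11 genes were lower with a median of -2.47. The remaining gene, the chemokine Ccl8, was not called (log2 fold change 0.25, adjusted p = 0.484). The largest fall was that of Timd4, a receptor for phosphatidylserine on long-lived resident macrophages, which went from a benign range of 5.73 to 57.1 CPM to a tumor range of 0.255 to 0.809 CPM (a log2 change of -5.17 with adjusted p = 5.44e-05). The high end of the benign range was the value of benign 1, and without it the log2 fold change was -4.09. Timd4 could pass the filter on its benign values alone, and its low tumor counts make the size of this fall imprecise. The number of lower genes was 11 without benign 1 and 10 without benign 3, 4 and 6. Several of these genes, such as Selenop and Gas6, are also expressed by other cells of the tissue.

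Trem2 (chromosome 17, 48346401 to 48354147) moved in the opposite direction. In benign tissue it had a lowest, median and highest level of 3.47, 4.70 and 9.84 CPM, and in tumors of 10.7, 14.1 and 15.6 CPM. The lowest tumor lay just above the highest benign sample, benign 5. Trem2 rose from 5.497 ± 2.47 to 13.5 ± 2.08 CPM, 2.46-fold in mean (a log2 change of 1.26 with SE 0.26 and adjusted p = 9.90e-04). Without benign 3, 4 and 6 the log2 fold change was 0.98 and was still called (adjusted p = 0.0143), as it was under each of the other 19 alternatives.

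The signaling partners of TREM2 moved in both directions or were not called. Of 7 tested adaptor and kinase genes 1 was higher, 1 lower and 5 not called, where 28.2% of all genes tested were higher and 34.8% lower. Tyrobp, the adaptor itself, had overlapping levels of 13.5 to 41.1 CPM in the benign samples and 10.7 to 24.6 CPM in the tumors (a log2 change of -0.35 with adjusted p = 0.278), but was called lower without benign 3, 4 and 6 (-0.65, adjusted p = 0.0661). The ratio of Trem2 to Tyrobp counts was 0.103 to 0.416 in benign tissue and 0.612 to 1.37 in tumors, without overlap. Plcg2, a phospholipase that acts downstream of TREM2 and also of other receptors, rose from 22.9 ± 15.4 to 88.4 ± 9.91 CPM (a log2 change of 1.93 with adjusted p = 1.69e-04). Syk, the kinase recruited by TYROBP and also used by lymphocytes, fell with a log2 fold change of -2.0 (adjusted p = 0.00488). Benign 1 held 104 CPM of Syk, and without it the log2 fold change was -1.10, while the median of the group moved from -0.85 to 0.11. The number of lower genes rested on single samples: it was 2 to 4 without benign 3, 4, 5 or 6 or tumor 3, and 6 of 7 without benign 3, 4 and 6 together.

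Members were also compared as ratios of counts within a sample, in which depth and scaling cancel. Such a ratio shows unequal change of a pair of genes, not which of them changed. Adgre1 served as the denominator because it is the standard mouse macrophage marker, and this choice was made with its small change known. The Mrc1 to Adgre1 ratio was 3.86 to 6.09 in benign tissue and 0.771 to 1.51 in tumors, a 4.17-fold lower geometric mean. The Cd163 to Adgre1 ratio was 1.12 to 3.10 in benign tissue and 0.0932 to 0.667 in tumors, 5.63-fold lower. The Trem2 to Adgre1 ratio was 0.260 to 0.462 in benign tissue and 0.778 to 1.53 in tumors, 3.01-fold higher. None of the 3 ratios overlapped between groups. Each had p = 0.00216 by a two-sided exact permutation test on log2 ratios (adjusted p = 0.00433 over 16 ratios). That p is the smallest that 924 splits of 6 against 6 allow, and any ratio without overlap receives it. The tests were added after these ratios were seen and reuse members tested above, so they are no independent support. Cd68 relative to Adgre1 was 1.46-fold lower with overlap (exact permutation p = 0.0130, adjusted p = 0.0208). Fcgr3, Csf1r and Cd14 relative to Adgre1 overlapped, with adjusted exact permutation p of 0.0837, 0.115 and 0.712, and Lyz2 relative to Adgre1 was 1.86-fold lower (adjusted exact permutation p = 0.0630).

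**Figure D3:**
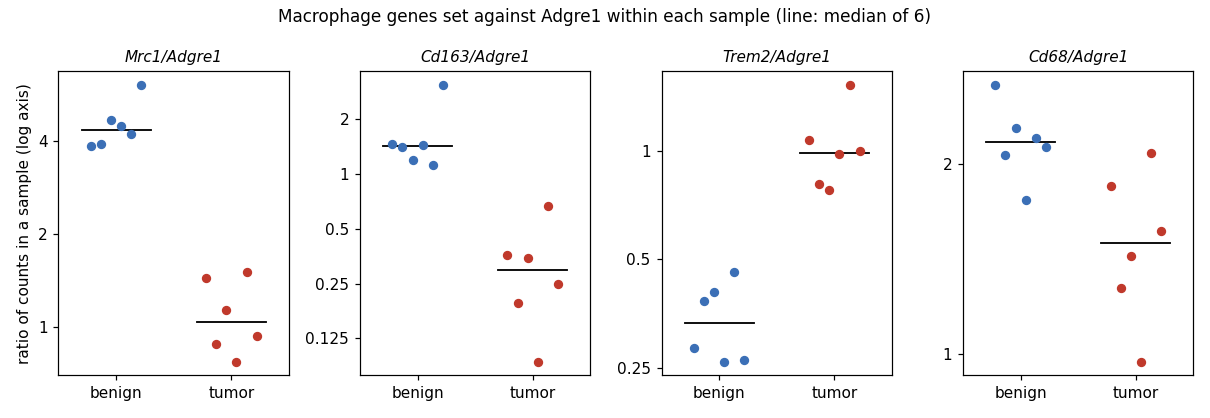
Ratio of Mrc1, Cd163, Trem2 and Cd68 counts to Adgre1 counts in each sample (y axis, log scale), for 6 benign and 6 tumor samples, with lines at the medians. The first 3 ratios separate the groups, with medians of 4.34 and 1.03 for Mrc1, 1.42 and 0.299 for Cd163 and 0.333 and 0.992 for Trem2, while Cd68 overlaps.

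Other denominators gave the same directions. These follow from the changes given above, since Csf1r and Cd68 fell less than Mrc1 and Cd163 while Trem2 rose, and they are no further support. Relative to Csf1r, Mrc1 was 3.33-fold lower and Trem2 3.77-fold higher without overlap, and Cd163 was 4.50-fold lower with overlap (adjusted exact permutation p = 0.00770). Relative to Cd68, Mrc1 was 2.86-fold lower and Trem2 4.38-fold higher without overlap. The ratio of Trem2 to Mrc1 was 0.0431 to 0.109 in benign tissue and 0.687 to 1.27 in tumors, a 12.5-fold difference. The ratio of Cd163 to Mrc1 overlapped between groups (adjusted exact permutation p = 0.198), at 0.255 to 0.509 in benign tissue and 0.121 to 0.442 in tumors.

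Within groups, the members varied with Csf1r to different degrees, and not alike in tumors and benign tissue. Tumors 1 and 5 were the lowest for Csf1r, Adgre1, Cd14 and Csf1, while tumors 2, 3 and 4 were the highest for all 4 of these genes. The summed leukocyte genes followed the same order of extremes, at 63.7 and 50.7 CPM in tumors 1 and 5 and 101 to 134 CPM in tumors 2, 3 and 4. Mrc1, Cd163, Lyz2 and Trem2 did not share this order, as tumor 5 had the highest Cd163 and tumor 1 the highest Lyz2 among tumors. Measured as the Pearson correlation of deviations from the group means over the 12 samples, likeness to Csf1r was 0.81 for Fcgr3, 0.79 for Adgre1, 0.73 for Cd14, 0.59 for Csf1 and 0.48 for Cd68. It was 0.32 for Trem2, 0.26 for Lyz2, 0.20 for Mrc1 and -0.16 for Cd163. Over the 6 tumors it was 0.95 for Adgre1, 0.92 for Cd14 and 0.87 for Csf1, and over the 6 benign samples 0.50, 0.15 and -0.14. The order was the other way for Cd68 and Lyz2, at 0.77 and 0.76 over the benign samples and 0.21 and -0.22 over the tumors, while Fcgr3 was near 0.8 in both groups (0.82 and 0.80). All genes of a sample share its library and depth, and these values are a description. The tested genes outside the members most like Csf1r by this measure were Cybb (0.95), Man2b1 (0.95), Gpr34 (0.94), Serpina1a (0.92) and Evi2a (0.91). Of these, Cybb, a subunit of the phagocyte NADPH oxidase, was 33.6 ± 14.9 CPM in the benign samples and 27.4 ± 12.1 CPM in the tumors (adjusted p = 0.431), and Man2b1 and Gpr34 were not called either (log2 fold change -0.12 and 0.54), although Gpr34 was higher without benign 1, tumor 1 or tumor 5 (0.71 to 0.81, adjusted p 0.0377 to 0.0741). Serpina1a, a protease inhibitor gene with near-identical copies, and Evi2a were lower in tumors (log2 fold change -3.98 and -1.51, adjusted p = 2.08e-05 and 0.00172). Serpina1a was at 0.155 to 1.35 CPM in the tumors, which makes the size of its fall imprecise.

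**Figure D4:**
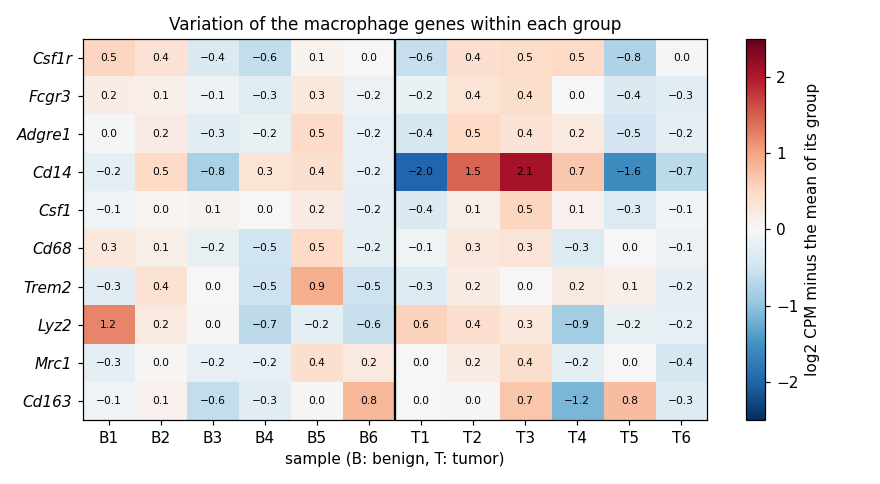
Log2 CPM of each macrophage gene minus the mean of its group (color and printed value), for benign samples B1 to B6 and tumors T1 to T6. Genes are ordered by their likeness to Csf1r, and the upper rows share low values in T1 and T5, while Lyz2, Mrc1 and Cd163 do not share them.

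Between genes, levels were compared per kilobase of exon (CPM divided by the length of the merged exons in GENCODE M21). Lyz2 was highest in both groups, at 237 ± 134 CPM per kb in benign tissue and 106 ± 35.0 in tumors. In benign tissue Cd68 (27.0 ± 6.88), Cd14 (24.6 ± 7.83), Csf1r (21.8 ± 6.33) and Csf1 (18.6 ± 1.99) followed within each other's spread. Mrc1 (12.9 ± 2.49) and Fcgr3 (12.5 ± 1.95) came next and did not differ beyond their spread. Cd163 (5.42 ± 2.0), Trem2 (4.81 ± 2.16) and Adgre1 (4.80 ± 1.04) were lowest and close together. In tumors Cd14 (39.0 ± 38.2), Cd68 (15.98 ± 2.93), Csf1r (15.5 ± 5.46) and Csf1 (14.2 ± 3.49) again overlapped. The lower end was reordered: Trem2 stood at 11.9 ± 1.82 CPM per kb, next to Fcgr3 (9.61 ± 2.30), while Adgre1 (4.28 ± 1.25), Mrc1 (2.72 ± 0.590) and Cd163 (0.892 ± 0.418) took the last places. Adgre1 and Mrc1 overlapped there, while every tumor had more Mrc1 than the highest tumor level of Cd163.

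The partners of the members were followed through lists of related genes, each described by its counts beside the shares of all genes given above. Among 11 partners of CD14 in Toll-like receptor signaling, 2 were higher, 1 was lower and 8 were not called, with a median log2 fold change of 0.17. Ticam1, the adaptor TRIF, rose from 18.6 ± 2.69 to 33.4 ± 3.22 CPM without overlap (a log2 change of 0.81 with adjusted p = 1.32e-04), and Ticam2, the adaptor TRAM that links TRIF to TLR4, fell from 4.96 ± 1.19 to 1.70 ± 0.365 CPM without overlap (a log2 change of -1.56 with adjusted p = 8.30e-05). Tlr4 itself had overlapping levels, and was not called (log2 fold change 0.58, adjusted p = 0.214), although it was higher without tumor 1 (0.82, adjusted p = 0.0636) or tumor 6 (0.82, adjusted p = 0.0718). The number of higher genes in this list was 5 without tumor 1, 4 without tumor 6 and 1 without benign 4, and 2 were lower without benign 3, 4 and 6.

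The Fc gamma receptors changed in different directions. Fcgr1, the high-affinity receptor, rose from 2.81 ± 0.985 to 7.03 ± 3.04 CPM (a log2 change of 1.28 with adjusted p = 0.00541). The inhibitory Fcgr2b was lower (a log2 change of -0.70 with adjusted p = 0.0262), and so was Fcer1g, the signaling chain that the activating receptors share (a log2 change of -0.60 with adjusted p = 0.0101). Fcgr4 was too low to be tested, at 0.166 to 0.918 CPM in the benign samples and 0 to 2.34 CPM in the tumors.

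Scavenger and lectin receptors related to Mrc1 and Cd163 were lower in 7 of 11 tested genes and not called in 4, with a median of -1.21, and without benign 1, 1 gene of the list was higher. Cd36, a fatty acid transporter that adipocytes and endothelium express strongly as well, went from 2058 ± 572 to 22.7 ± 7.49 CPM (a log2 change of -6.54 with adjusted p = 6.99e-09). Of 10 tested genes of hemoglobin and iron handling, 2 were higher and 8 lower. Hmox1, which breaks down the heme that CD163 brings in, rose from 31.7 ± 8.47 to 134 ± 92.0 CPM (a log2 change of 2.05 with adjusted p = 0.00242). Hp, haptoglobin, the ligand partner of CD163 and also an adipocyte product, fell from 263 ± 158 to 10.5 ± 6.06 CPM (a log2 change of -4.68 with adjusted p = 1.14e-05). Without benign 3, 4 and 6, 5 of these 10 genes were lower, as were 5 without tumor 4 and 4 without tumor 6.

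Of 10 tested transcription factors of the macrophage lineage, 8 were lower and 2 higher, with a median of -1.37. Runx1 rose from 38.4 ± 9.40 to 101 ± 34.8 CPM without overlap (a log2 change of 1.37 with adjusted p = 2.76e-04), and Cebpa, also a factor of adipocytes, fell from 461 ± 116 to 28.2 ± 7.64 CPM (a log2 change of -4.07 with adjusted p = 3.03e-08). Both are also expressed outside macrophages.

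Other general macrophage genes moved in both directions: of 15 tested, 2 were higher, 4 lower and 9 not called, with a median of -0.17. Cx3cr1, the fractalkine receptor of monocyte-derived and tissue macrophages, rose from 8.97 ± 5.03 to 49.9 ± 14.2 CPM without overlap (a log2 change of 2.44 with adjusted p = 1.80e-04). Cd53, a tetraspanin of all leukocytes, was lower (a log2 change of -1.86 with adjusted p = 0.0300), but it was at 144 CPM in benign 1, and without that sample its log2 fold change was -0.40 (adjusted p = 0.124), against -2.50 without benign 3, 4 and 6. Without benign 1, 4 of the 15 genes were higher and 2 lower, and without tumor 5, 4 were higher. The summed level of these 15 genes was 1411 CPM in benign 1, 445 to 735 CPM in the other benign samples and 486 to 903 CPM in tumors.

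**Figure D5:**
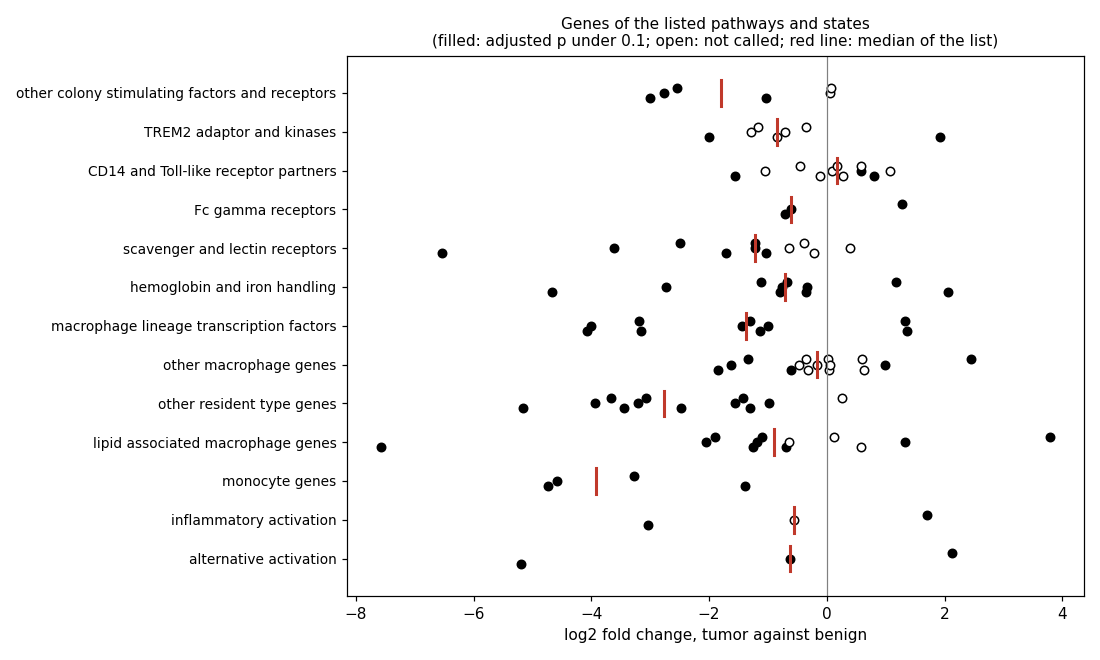
Log2 fold change in tumors against benign tissue (x axis) of each tested gene in the 13 lists of related genes (rows), with filled points for an adjusted p under 0.1 and a red line at the median of each list. The resident type and monocyte rows lie almost wholly below 0, with medians of -2.77 and -3.93, while the other macrophage genes scatter around 0.

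Genes that mark lipid-associated macrophages, the state in which Trem2 is best known, were more often lower than higher. Of 12 tested, 2 were higher and 7 lower, with a median of -0.90. Spp1, which encodes osteopontin and is made by many cells, rose from a benign range of 5.51 to 111 CPM to a tumor range of 82.7 to 2689 CPM (a log2 change of 3.79 with adjusted p = 0.00772). Its log2 fold change was 3.15 without tumor 3 and 5.12 without benign 3, 4 and 6, and it was called in both cases. Lpl, lipoprotein lipase, the main lipase secreted by adipocytes, fell from 4664 ± 941 to 24.9 ± 7.89 CPM (a log2 change of -7.58 with adjusted p = 2.21e-09). The adipocyte markers moved in the same direction in the same samples, and their part in the fall of this list was not tested.

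Of 7 listed monocyte genes 4 passed the filter, and all 4 were lower, with a median of -3.93. The summed level of the list was 128 to 375 CPM in the benign samples and 5.91 to 16.7 CPM in the tumors. A gene could thus pass the filter on its benign values alone, and low tumor counts make the size of these falls imprecise. Ly6c2, the marker of inflammatory monocytes, went from a benign range of 2.49 to 26.6 CPM to 0 to 0.622 CPM in tumors (a log2 change of -4.73 with adjusted p = 1.93e-04), and the near copy Ly6c1, which endothelium expresses as well and which could share reads with it, had a log2 fold change of -4.59. Plac8 had a log2 fold change of -3.27, and Ccr2, the receptor that brings monocytes into tissue, of -1.39. Without benign 1 the log2 fold change of Ly6c2 was -3.79. The sum and the median of the list count Ly6c1, and Ly6c2 was a minor part of the benign sum. The summed endothelial markers were 564 to 1094 CPM in the benign samples and 82.9 to 100 CPM in the tumors. Their part in the fall of this list was not tested.

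The activation genes were mostly too low to test. Of 3 tested inflammatory genes, Il1a was higher (a log2 change of 1.69 with adjusted p = 0.0213) and Nos2, the inducible nitric oxide synthase, was lower (a log2 change of -3.04 with adjusted p = 0.00219). The change of Il1a was 2.38 on the log2 scale without benign 1, and it was not called without benign 3, 4 and 6 (1.23, adjusted p = 0.141). Of 3 tested genes of alternative activation, Arg1, arginase, rose from 29.1 ± 14.3 to 131 ± 64.9 CPM (a log2 change of 2.13 with adjusted p = 4.58e-04, and of 2.76 without benign 3, 4 and 6). Ccl24, an eotaxin, fell from 9.09 ± 2.18 to 0.237 ± 0.126 CPM (a log2 change of -5.20 with adjusted p = 1.89e-07). It could pass the filter on its benign values alone, and its low tumor counts make the size of this fall imprecise. Il4ra, the interleukin-4 receptor, was lower (a log2 change of -0.63 with adjusted p = 0.0467). The call of Il4ra was lost without benign 1, without tumor 1, 4 or 5, and without benign 3, 4 and 6 (log2 fold change -0.43 to -0.54, adjusted p 0.112 to 0.152).

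None of the tested markers of other leukocytes was called higher in tumors. All 8 genes shared by leukocytes were lower, and 5 were lower without benign 1. Ptprc, which encodes CD45, had a log2 fold change of -2.05 (adjusted p = 0.0560), which became 0.15 (adjusted p = 0.581) without benign 1. It was also not called without tumor 1, 5 or 6 (-1.89 to -1.92, adjusted p 0.103 to 0.105), and was -2.80 without benign 3, 4 and 6. Of the tested markers, 2 of 3 for neutrophils, 3 of 5 for dendritic cells, 4 of 5 for T and NK cells and all 4 for mast cells were lower, while the single tested B cell marker was not called. Without benign 1, 3 of the 5 T and NK cell markers were lower and their median moved from -3.89 to -0.85, and the median of the neutrophil markers moved from -1.82 to -0.85. Leaving out a tumor let more T and NK cell markers pass the filter, and 7 of 8 were then lower, and likewise 1 of 2 B cell markers. A marker could pass on its benign values alone, with all 12 samples as well as with a tumor left out. The counts of lower markers therefore partly follow from the filter, and those with a tumor left out add no evidence. The summed mast cell markers, for example, were 39.1 to 71.6 CPM in the benign samples and 2.70 to 5.70 CPM in the tumors. Per count of Ptprc, Adgre1 was 0.653 to 0.774 in tumors and 0.0377 in benign 1, with the other benign samples up to 1.12.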

How the data were processed

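Poly A RNA from 6 tumors and 6 benign samples was sequenced by the authors in paired reads, quantified with Salmon and deposited as estimated counts per gene in whole numbers, without scaling. The submitters' processing notes name Trim Galore, Salmon, DESeq2 and mm10; the versions and the annotation are not given in the sources used here. The paper's threshold, an adjusted p under 0.1, was kept.

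Counts were filtered with filterByExpr (at least 10 counts in enough samples, 15 in total), scaled with TMM and tested with edgeR 4.0.16 (R 4.3.3), whose quasi-likelihood test was two-sided, and p-values were adjusted by Benjamini-Hochberg over 13191 genes. CPM are counts per 1e+06 of the TMM-scaled library, and log2 CPM added 2 counts. DESeq2 1.42.0 was an alternative. The code was tested on simulated data. Nothing says whether the samples of a group shared a litter or a day, or whether each tumor came from its own mouse. The p-values therefore measure the spread between these samples.

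The members and lists were chosen with earlier results of these data known. Named genes were the 10 members, the largest rise and fall among the called genes of each list and all genes of lists of at most 4, Lyz1, Fcgr2b and Lyve1, and the 5 genes most like Csf1r. Il34, Csf2ra, Csf3r, Ccl8, Selenop, Gas6, Tyrobp, Tlr4, Ly6c1, Plac8, Ccr2, Il4ra and Ptprc were added after their values were seen. Positions and exon lengths came from GENCODE M21 (GRCm38, the build that mm10 names). Every column of the table was mapped to a sample by its label.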

Additional observations from a re-analysis of the deposited data

Results flagged for a closer look

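Of the 20 sets of 6 samples formed by the 10 genes in each group, 2 held a sample whose gap to the nearest other sample, as a share of the whole range, passed Dixon's 95% critical value; about 1 in 20 such sets would do so by chance. Lyz2 in benign 1 was 653 CPM, and the nearest benign sample was at 328 CPM (gap share 0.683). Benign 1 was also the sample with 1865 CPM of leukocyte genes. Cd163 in benign 6 was 41.2 CPM, and the nearest benign sample was at 24.9 CPM (gap share 0.626, barely past the critical value). Benign 6 held the highest level of skeletal muscle transcripts, 85353 CPM. Both samples are on the side that widens the difference to tumors, and both genes were called without them. The part of the other cell types in these values was not tested.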

How the results depend on the processing

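The 20 alternatives changed the tool (DESeq2), the scaling (upper quartile, or none), the filter (1 count over all samples, or 10 in each), the threshold (0.05), the model (the replicate block) or the samples (each of the 12 left out, or benign 3, 4 and 6 together). Under all of them 1 member was higher and the calls and directions of Cd68, Lyz2, Mrc1, Cd163 and Trem2 held. Leaving out each sample in turn gave 4 to 7 lower members, with 4 without tumor 1 and 4 without tumor 5. The log2 fold change of a called member changed sign under no alternative. Csf1r was called in 4 of 20, Fcgr3 in 9 and Csf1 in 17. With the replicate number as a block (replicate block), 5 members were lower, 1 was higher and Cd14 had a log2 fold change of -0.04. Tumors and benign samples with the same number came from different mice, and their deviations correlated at -0.12 to 0.10, so the numbers pair nothing. List counts and values of genes outside the members with samples left out, the resident type list without Lyve1, and the ratios over Csf1r and Cd68, were chosen after seeing the data. So were the permutation tests of the ratios, those over Adgre1 included. Depth limits Cd163 and Trem2, with counts down to 11 and 20, more than the other members, which had at least 62.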
